A study of Canis lupus familiaris with 11 samples.

Results

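The mitochondrially encoded RNAs are the transcripts of the small circular genome that mitochondria keep apart from the nucleus. They were taken as every gene that the count table places on the mitochondrial chromosome (MT), whatever its level. This gave 37 genes of 26178 in all, of which 13 are protein-coding, 2 are ribosomal RNA (rRNA) genes and 22 are transfer RNA (tRNA) genes. RNA was sequenced in 11 libraries of 4 groups from MDCKII, an epithelial line from dog kidney that grows as a tight polarised sheet. KO compressed cells (3 libraries) lacked LMNA, the gene of the nuclear envelope proteins lamin A and lamin C, and were grown for 3 to 4 d, compressed laterally and left to recover for 2 h. KO control cells (2 libraries) were grown for the same time without compression. WT compressed cells (3 libraries) and WT control cells (3 libraries) were wild-type cells handled in these same 2 ways. The labels name no sham handling or recovery time for controls, so compression cannot be told apart from handling. Nothing in the labels says whether the KO cells are 1 clone or whether replicates are separate cultures. The p-values therefore measure only how far these libraries differ, which may be technical variation.

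All 13 mitochondrial proteins are parts of the machinery that turns respiration into ATP. Complex I takes electrons from NADH, complex III passes them on through cytochrome b, complex IV hands them to oxygen, and complex V is the ATP synthase. The genome is read from both strands as long precursor RNAs, which are then cut, largely at the tRNAs that lie between the other genes. In mammals most mitochondrial mRNAs receive short poly(A) tails, and kidney tubule epithelium is known for its many mitochondria. The proteins that copy, cut, translate and degrade these RNAs, and most respiratory chain subunits, are encoded in the nucleus.

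Libraries held 10420214 to 17999623 counts. LMNA RNA lay at 25.5 to 43.5 CPM (counts per 1e6 counts of the TMM-scaled library) in KO compressed cells, 38.4 to 51.8 CPM in KO control cells, 750.5 to 840.8 CPM in WT compressed cells and 678.4 to 1208 CPM in WT control cells, with no overlap between KO and WT libraries. The 8 epithelial markers checked summed to 3479 to 5521 CPM, while the 5 fibroblast and smooth muscle markers stayed at or under 0.706 CPM in sum, the 3 endothelial markers at or under 3.46 CPM and the 3 immune markers at or under 1.42 CPM. RNA was captured with oligo(dT), so the counts of rRNAs and tRNAs cover only molecules that were caught through an A-rich stretch or tail and are no measure of these RNAs in the cell. The mRNA counts also cover only captured molecules, and how capture differed between the mRNAs was not measured. Whether reads that fit a nuclear copy of mitochondrial DNA were assigned elsewhere is not given. The 2 nuclear genes whose description names a mitochondrially encoded protein held 0 counts, against 4480308 counts for the 13 mRNAs. A count of 0 allows up to 3 counts per library, for counting error only.

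Most of the 13 mRNAs were among the most abundant RNAs counted. By FPKM, 4 to 7 of them were in the top 20 genes of each library and 8 to 12 in the top 100. MT-ATP8 ranked lowest of the 13, at 510 to 1662. Per kilobase of gene, MT-ATP6, the proton channel subunit of complex V (7964 to 8644 on the plus strand of MT, CanFam3.1), was highest, with a mean of 7570 CPM per kilobase over the 11 libraries and a range of 4910 to 13100. The 3 core subunits of complex IV came next. MT-CO1 (5349 to 6893), the catalytic subunit, averaged 5070 CPM per kilobase, MT-CO2 (7034 to 7717) 3939 and MT-CO3 (8644 to 9427) 3852. The complex I subunits spanned a wide range. MT-ND1 (2747 to 3703) averaged 2719 CPM per kilobase, MT-ND4 (10201 to 11578) 2058 and MT-ND2 (3914 to 4957) 1488. MT-ND3 (9496 to 9842) averaged 996 CPM per kilobase and MT-ND4L (9911 to 10207) 972. At the foot of this group MT-ND6 (13582 to 14109) had 615 and MT-ND5 (11778 to 13598) 593. MT-CYB (14183 to 15322), the cytochrome b of complex III, stood beside them at 614 CPM per kilobase.

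Neighbours in this order often had overlapping ranges over the libraries of a group. A shift of a whole library widens the ranges of both neighbours, so overlap does not show that they were level within a library. The order of neighbours within single libraries was not tested. Within WT control cells each range overlapped the next from MT-ATP6 through MT-CO1, MT-CO3 and MT-CO2 to MT-ND1, and within KO compressed cells the same held from MT-ATP6 down to MT-ND4. MT-ND3 and MT-ND4L overlapped in all 4 groups, as did at least 1 pair among MT-ND5, MT-ND6 and MT-CYB. The step from the lowest of these 3 to the shorter rRNA was clear in all 4 groups. Position alone did not order the levels: MT-CO1 and MT-ATP6, in the middle of the map, lay above MT-ND1 and MT-ND2, which precede them on the same strand.

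**Figure D1:**
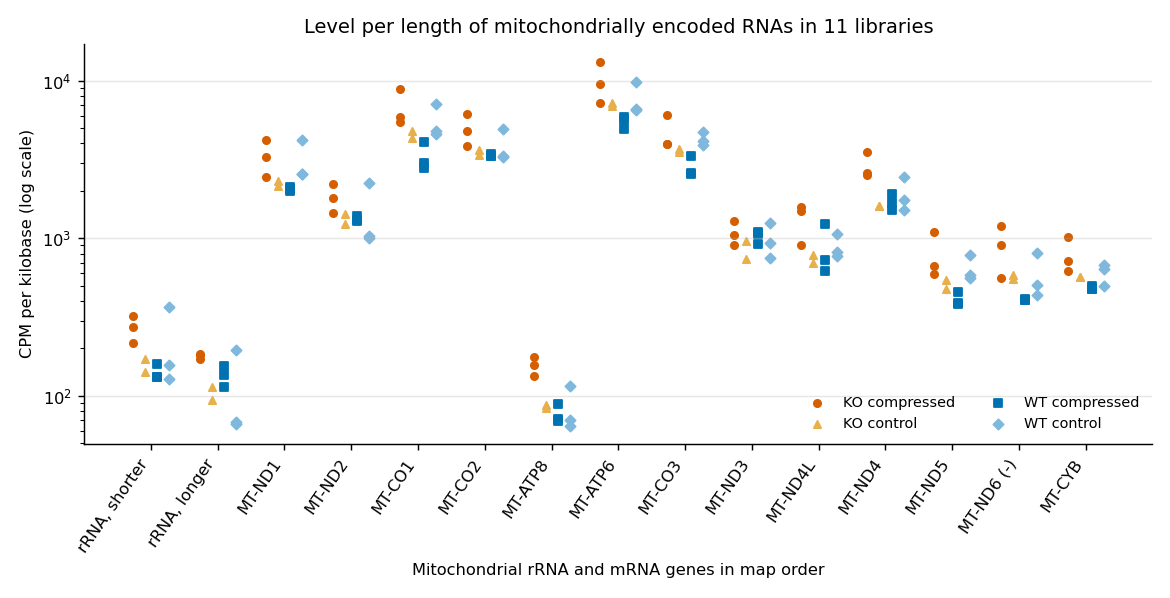
Level of the 2 rRNA and 13 mRNA genes in map order, as TMM-scaled CPM per kilobase of gene on a log axis, with 1 point per library and groups by colour and shape; (-) marks the minus strand. MT-ATP6 is highest, with a mean of 7570 CPM per kilobase, and MT-ATP8 lowest among mRNAs at 102.

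MT-ATP8, the other complex V subunit, had 102 CPM per kilobase on average although it lies beside MT-ATP6. Its gene (7803 to 8006) shares 43 bases, from 7964 to 8006, with that of MT-ATP6, and in mammals both are read from 1 shared mRNA. The ratio of MT-ATP6 to MT-ATP8 per kilobase was 61.0, 53.8 and 74.1 in KO compressed cells, 83.0 and 82.5 in KO control cells, 66.2, 80.6 and 68.5 in WT compressed cells and 84.3, 93.3 and 101 in WT control cells. How reads over shared bases were assigned is not given, so the level of MT-ATP8 is uncertain. MT-ND4L and MT-ND4, which are also read from 1 mRNA in mammals, share 7 bases, and their levels carry the same limit. MT-ND6 is the only mRNA gene on the minus strand, and its last bases overlap MT-ND5 over 17 bases (13582 to 13598). Without a stated strand setting, reads of MT-ND6 cannot be told from antisense reads of the plus strand, so its values are uncertain too.

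By complex, the 3 complex IV mRNAs held the largest share of mitochondrial mRNA counts, with 47.2% ± 0.950 in KO compressed cells, 48.7% ± 1.71 in KO control cells, 45.3% ± 3.37 in WT compressed cells and 49.1% ± 0.979 in WT control cells (SD, n = 3, 2, 3 and 3). The 7 complex I mRNAs held 31.9% ± 0.956 in KO compressed, 29.6% ± 1.00 in KO control, 34.3% ± 0.530 in WT compressed and 30.8% ± 1.71 in WT control cells. Complex V took 18.4% ± 1.55 in KO compressed, 19.1% ± 0.679 in KO control, 17.8% ± 2.71 in WT compressed and 17.6% ± 0.221 in WT control cells. MT-CYB, the complex III mRNA, took 2.43% to 2.62% in the group means. In the library WT control 1 it took 1.5%, the lowest of the 11.

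The 2 rRNA genes have no symbol in the files and are named here by length. The shorter, ENSCAFG00000022709 (954 bases, 70 to 1023), averaged 200 CPM per kilobase, and the longer, ENSCAFG00000022711 (1580 bases, 1091 to 2670), averaged 135. Together they made up 0.863% to 1.76% of the mitochondrial counts of a library. Both head the plus-strand map and encode the RNA of the small and the large subunit of the mitochondrial ribosome in mammals.

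Of the 22 tRNA genes, 3 reached a mean of 1 CPM, and all 3 lie on the minus strand. The gene at 5107 to 5178 averaged 23.0 CPM, the gene at 15392 to 15457 13.9 CPM and the gene at 5212 to 5279 9.28 CPM. These 3 held 85.8% to 94.8% of all tRNA counts of a library, and the 8 minus-strand tRNA genes together 91.6% to 96.5%. As for MT-ND6, no strand setting is stated, so these reads cannot be told from antisense reads of the plus strand. The split of tRNA counts by strand is therefore uncertain. The other 14 tRNA genes lie on the plus strand, and 2 of them had 0 counts in all 11 libraries. The remaining tRNA genes were low, with at most 126 counts over the 11 libraries, the number held by the gene at 14108 on the minus strand. That gene had 4, 9 and 8 counts in KO compressed, 25 and 4 in KO control, 3, 5 and 1 in WT compressed and 3, 38 and 26 in WT control libraries. Of the 37 genes, 21 passed the filter on low counts, namely all 13 mRNAs, both rRNAs and 6 tRNAs, of 13560 genes tested. The 6 comprised 4 of the 8 tRNA genes of the minus strand and 2 of the 14 of the plus strand.

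The 13 mRNAs took 3.24%, 2.85% and 4.68% of library counts in KO compressed cells, against 2.62% and 2.56% in KO control cells. They took 2.06%, 2.03% and 2.18% in WT compressed cells, against 3.76%, 2.68% and 2.58% in WT control cells. Every KO compressed library lay above both KO controls, and every WT compressed library lay below all WT controls. The means were 3.59% ± 0.963 in KO compressed and 2.59% ± 0.0370 in KO control cells, and 2.09% ± 0.0766 in WT compressed and 3.01% ± 0.657 in WT control cells (SD). KO compressed 3 and WT control 1 had the highest shares of their groups. The difference of the means was 0.999 percentage points in KO cells and 0.455 without KO compressed 3, and -0.916 percentage points in WT cells and -0.539 without WT control 1. In RNA from whole cultures, less RNA per mitochondrion and fewer mitochondria per cell cannot be told apart, and a share also moves with the rest of the RNA.

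**Figure D2:**
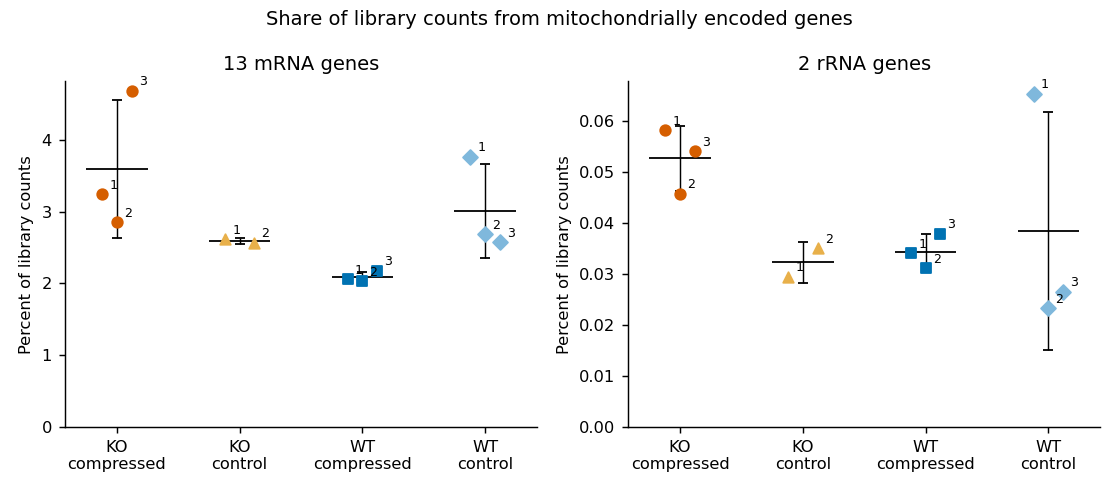
Percent of library counts from the 13 mitochondrial mRNA genes (left) and the 2 rRNA genes (right), 1 point per library with its replicate number, horizontal line the mean and bars 1 SD. The mRNA share is 2.85% to 4.68% in KO compressed against 2.56% and 2.62% in KO control cells, and 2.03% to 2.18% in WT compressed against 2.58% to 3.76% in WT control cells.

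After compression of KO cells, all 13 mRNAs had a positive log2 fold change against KO controls, from 0.34 to 0.87 with a median of 0.56, where the median over all 13560 genes was -0.004. No mitochondrial gene, and no gene of the table (0.0%), reached an adjusted p under 0.05 in edgeR (quasi-likelihood, two-sided, Benjamini-Hochberg over the 13560 genes). At an unadjusted p under 0.05 edgeR gave 10 of the 13 mRNAs and the shorter rRNA as higher, against 3.41% of all genes, and none as lower. DESeq2 and limma called none of the mitochondrial genes. The libraries of 11 of 13 mRNAs did not overlap, all higher, against 13.5% of all genes. The 2 exceptions were MT-ND3 and MT-ND6.

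MT-ND4, a proton-pumping complex I subunit, had 3464, 3600 and 4847 CPM in KO compressed cells, against 2215 and 2192 CPM in KO control cells. All 3 compressed libraries lay above both controls, with a log2 fold change of 0.85 ± 0.21 (SE) and an edgeR adjusted p of 0.773. MT-ATP8 had 32.0, 27.4 and 36.1 CPM in KO compressed cells, against 17.0 and 17.8 CPM in KO control cells, a log2 fold change of 0.87 ± 0.27. MT-ND4L had 268.8, 469.1 and 441.5 CPM in KO compressed cells, against 230.9 and 206.8 CPM in KO control cells, a log2 fold change of 0.85 ± 0.29. These 3 had the largest values of the 13, and their compressed and control libraries did not overlap. MT-CO1 had 9088, 8454 and 13708 CPM in KO compressed cells, against 7445 and 6675 CPM in KO control cells, a log2 fold change of 0.56 ± 0.24. Both rRNAs were higher in all 3 compressed libraries, the shorter by 0.78 ± 0.35 and the longer by 0.79 ± 0.37 on the log2 scale. The adjusted p of all of these was 0.773. Without KO compressed 3, the median of the 13 mRNAs was 0.31.

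In WT cells the sign was mostly negative. After compression 12 of 13 mRNAs had a negative log2 fold change, from -0.74 for MT-CO1 to -0.04 for MT-ND4L, and MT-ND3 had 0.07. The median was -0.32, against -0.02 over all genes. None of the 21 mitochondrial genes passed the same edgeR threshold, where 6.25% of all genes did. At an unadjusted p under 0.05 edgeR gave 5 mRNAs and 3 tRNAs as lower and none as higher, beside 16.4% of all genes lower. DESeq2 called 5 lower (MT-CO1, MT-CO3, MT-ND5, MT-ND1 and 1 tRNA), where it called 9.07% of the genes it gave an adjusted p lower. Libraries did not overlap for 7 of 13 mRNAs, all lower after compression, against 20.8% of all genes. These 7 were MT-ND1, MT-CO1, MT-ATP6, MT-CO3, MT-ND5, MT-ND6 and MT-CYB.

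MT-CO1 had 4637, 4338 and 6329 CPM in WT compressed cells, against 11002, 7353 and 7131 CPM in WT control cells. Every compressed library lay below every control, with a log2 fold change of -0.74 ± 0.22 and an edgeR adjusted p of 0.0546, which misses the threshold, and a DESeq2 adjusted p of 0.0193. MT-CO3 had 2011, 2036 and 2588 CPM in WT compressed cells, against 3699, 3250 and 3042 CPM in WT control cells, a log2 fold change of -0.59 ± 0.17 with an edgeR adjusted p of 0.0549. MT-ND5, a proton-pumping complex I subunit and the longest of the genes, had 705.9, 693.5 and 825.0 CPM in WT compressed cells, against 1425, 1057 and 1024 CPM in WT control cells, with -0.66 ± 0.21 and an edgeR adjusted p of 0.0686. MT-ND1 had -0.59 ± 0.21 and MT-ATP6 -0.48 ± 0.20, with edgeR adjusted p-values of 0.0834 and 0.128. Their compressed and control libraries did not overlap either. MT-CO2 lies between MT-CO1 and MT-CO3 on the map and belongs to the same complex. It had 2288, 2282 and 2331 CPM in WT compressed cells, against 3365, 2271 and 2228 CPM in WT control cells, so its groups overlapped, with -0.19 ± 0.18. MT-ND2, MT-ATP8, MT-ND3, MT-ND4L and MT-ND4 overlapped as well, between -0.17 and 0.07. Without WT control 1 the median of the 13 mRNAs was -0.20, MT-CO1 had -0.51 ± 0.21, and MT-ND2 had 0.37 ± 0.17.

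**Figure D3:**
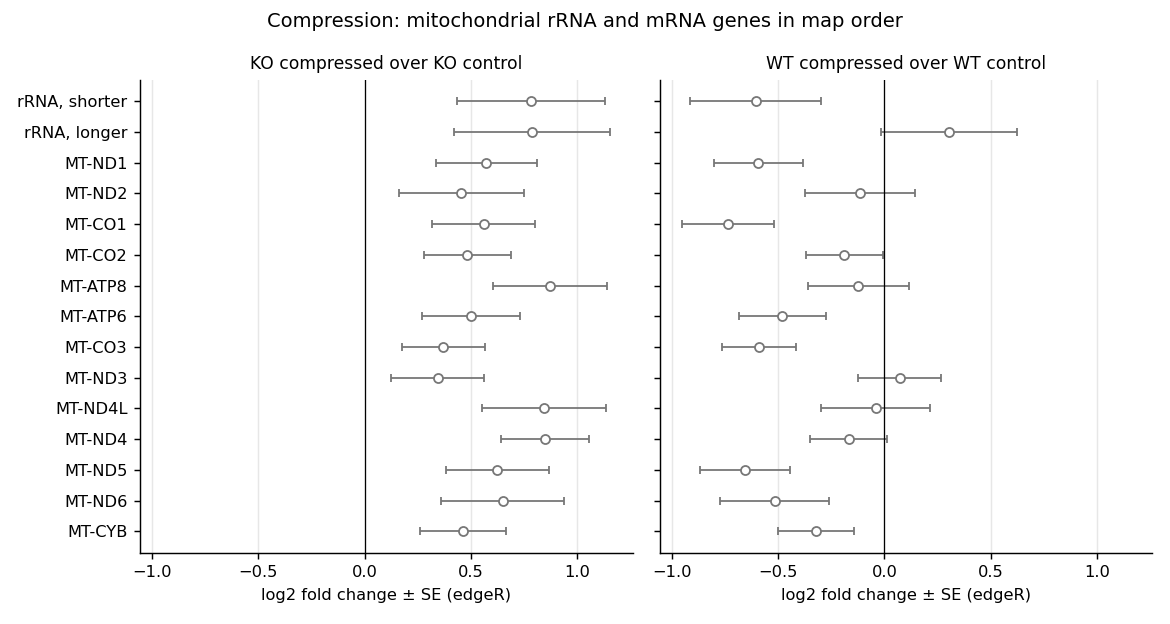
Log2 fold change on compression of the 2 rRNA and 13 mRNA genes in map order, with bars of 1 SE from the edgeR fit, for KO cells (left) and WT cells (right); open points did not pass an adjusted p of 0.05. All points for KO cells are above 0, while MT-CO1 at -0.74 is the lowest for WT cells and the longer rRNA at 0.30 the highest.

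The 2 rRNAs had log2 fold changes of opposite sign in WT cells. The shorter had 126.3, 126.5 and 152.9 CPM in WT compressed cells, against 346.8, 121.4 and 149.6 CPM in WT control cells, and the longer had 215.3, 179.9 and 245.6 CPM in WT compressed cells, against 306.8, 104.5 and 107.9 CPM in WT control cells. For both, WT control 1 was the highest of the 6 WT libraries and the groups overlapped, with values of -0.61 ± 0.31 and 0.30 ± 0.32 and edgeR adjusted p-values of 0.19 and 0.528. Without WT control 1 the longer rRNA had 1.01 ± 0.16, with an edgeR adjusted p of 0.0167, and the shorter -0.004 ± 0.19. That fit called 1379 genes of the whole table, against 848 in the reported fit. It was the only 1 of 11 fits leaving out 1 library that called the longer rRNA. Without WT control 2 the longer rRNA had 0.04. The ratio of the longer to the shorter rRNA within a library does not depend on scaling. Per kilobase it was 0.574, 0.787 and 0.672 in KO compressed, 0.667 and 0.655 in KO control, 1.03, 0.859 and 0.970 in WT compressed and 0.534, 0.520 and 0.436 in WT control cells. The 3 WT compressed libraries were above all the other 8, and WT controls, WT control 1 included, were below all others.

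Of 13 ratios computed, compressed and control libraries did not overlap in 6 in WT cells and in 3 in KO cells. Besides the rRNA ratio, the 6 were MT-CO1 over MT-CO2, MT-ND2 over MT-ND1, MT-ND3 over MT-CO3, MT-ATP6 over MT-ATP8 and complex IV over complex I. The 3 in KO cells were MT-CO1 over MT-CO3, higher after compression, and MT-ATP6 over MT-ATP8 and complex IV over complex I, both lower. The last 2 were lower after compression in WT cells too. A share over all pairs of genes was not computed, so these counts are not read as a result. MT-CO1 over MT-CO2 and MT-ND2 over MT-ND1 are given by library. MT-CO1 over MT-CO2, in counts, was 2.79, 3.20 and 3.29 in KO compressed, 3.21 and 2.69 in KO control, 2.03, 1.90 and 2.72 in WT compressed and 3.27, 3.24 and 3.20 in WT control cells. MT-ND2 over MT-ND1 was 0.593, 0.641 and 0.572 in KO compressed, 0.619 and 0.673 in KO control, 0.753, 0.695 and 0.662 in WT compressed and 0.587, 0.444 and 0.429 in WT control cells. The WT groups did not overlap in either ratio, and WT compressed 3 lay within the range of KO control libraries in both. The ratios were chosen after their values were seen and were not tested.

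**Figure D4:**
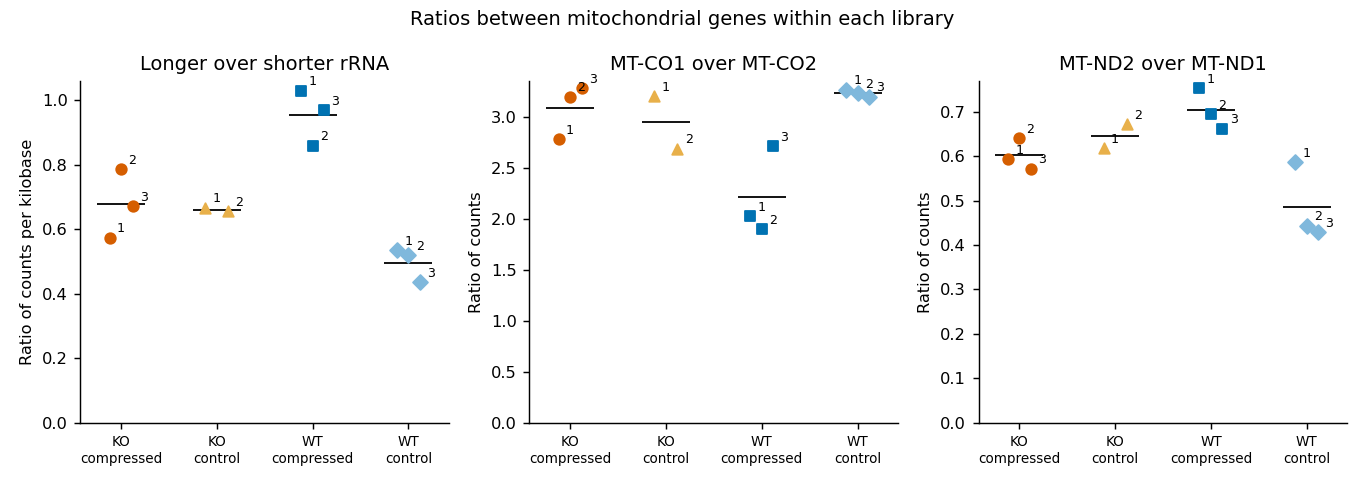
Ratios between 2 mitochondrial genes within each library, 1 point per library with its replicate number and a line at the group mean. The ratio of longer to shorter rRNA per kilobase is 0.859 to 1.03 in WT compressed libraries and 0.436 to 0.534 in WT control libraries.

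Between genotypes after compression, MT-CO1 was the only mitochondrial gene called. It was higher in KO compressed cells, at 9088, 8454 and 13708 CPM, than in WT compressed cells, at 4637, 4338 and 6329 CPM. No libraries overlapped, and the log2 fold change was 1.03 ± 0.22 with an edgeR adjusted p of 0.0448, in a comparison in which 0.509% of all genes were called higher and 0.789% in all. The call rests close to the threshold. It was kept in 3 of 11 fits that left out 1 library (WT control 1, WT control 2 or KO compressed 2), with an adjusted p of 0.0177 to 0.227 over the 11, and was lost with the 2 groups alone (0.0753), with the replicate block (0.0584) and with limma (0.0999, 0.106 and 0.251 in 3 settings). DESeq2 gave 0.00225 and called 8 of the 13 mRNAs higher, where it called 1.68% of the genes it gave an adjusted p higher. All 21 mitochondrial genes tested had a positive log2 fold change, and 15 had an unadjusted p under 0.05, against 6.79% of all genes higher. The median of the 13 mRNAs was 0.72, against -0.01 over all genes.

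Libraries did not overlap for 11 of the 13 mRNAs, all higher in KO compressed cells, against 7.92% of all genes, and MT-ND3 and MT-ND4L were the exceptions. MT-ND6 had 474.9, 295.8 and 635.1 CPM in KO compressed cells, against 217.4, 213.0 and 215.7 CPM in WT compressed cells, a log2 fold change of 1.12 ± 0.26 with an edgeR adjusted p of 0.0707. MT-ATP8 had 1.02 ± 0.24 and MT-ND5 0.95 ± 0.21, with edgeR adjusted p-values of 0.077 and 0.0633. MT-ND3 had 446.1, 313.2 and 363.5 CPM in KO compressed cells, against 371.5, 381.3 and 317.8 CPM in WT compressed cells, with 0.07 ± 0.20, the smallest value of the 13. The shorter rRNA had 0.93 ± 0.31 and the longer 0.41 ± 0.32, with edgeR adjusted p-values of 0.228 and 0.705.

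**Figure D5:**
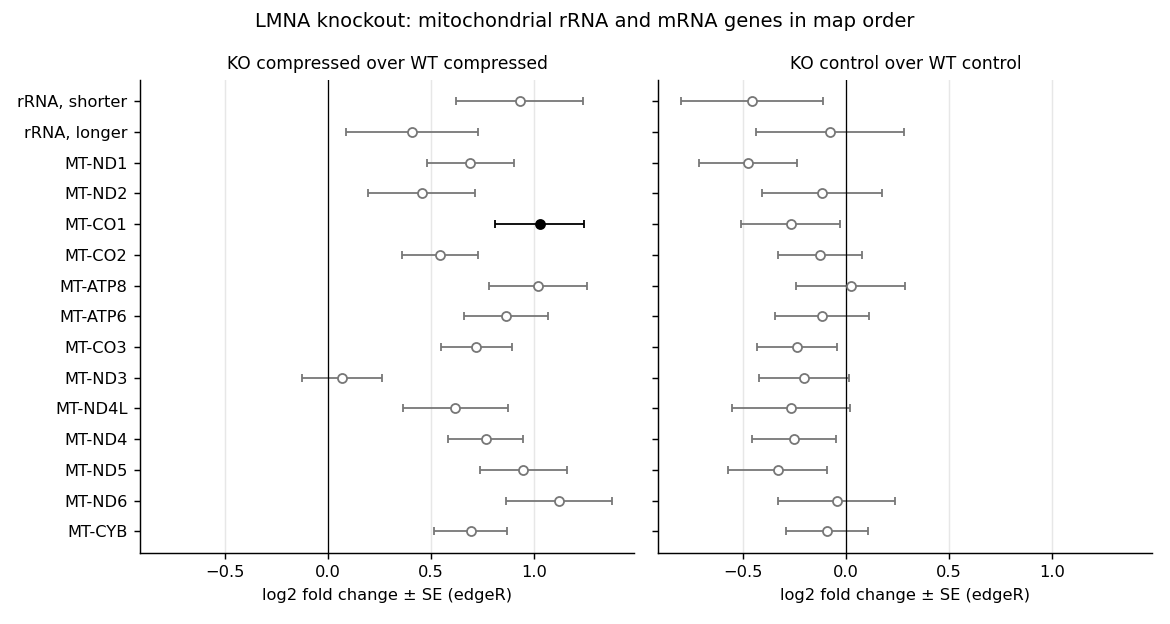
Log2 fold change of KO over WT cells for the 2 rRNA and 13 mRNA genes in map order, with bars of 1 SE from the edgeR fit, after compression (left) and without it (right); the filled point passed an adjusted p of 0.05. MT-CO1 at 1.03 is the filled point, and without compression the values run from -0.47 to 0.02 for the mRNAs.

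Without compression, KO and WT cells were nearer to each other. Over the 13 mRNAs, log2 fold changes of KO control over WT control cells had a median of -0.20, beside -0.01 for all genes, and a range of -0.47 for MT-ND1 to 0.02 for MT-ATP8. No mitochondrial gene passed the edgeR threshold, where 0.339% of all genes did, none had an unadjusted p under 0.05, beside 7.79% of all genes, and DESeq2 called none. The libraries of MT-ND1, MT-CO3 and MT-ND5 did not overlap, being lower in KO control cells, against 15.0% of all genes. Without WT control 1, 5 mRNAs did not overlap and were higher and 4 were lower. The share of all genes was not computed for these fewer libraries, so this count is not read as a result about the mRNAs. Without WT control 1 the median was -0.03, and without KO control 1 it was -0.09.

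The difference between the responses of KO and WT cells was tested as an interaction of genotype and compression. All 13 mRNAs had a positive value, KO response minus WT response, from 0.27 for MT-ND3 to 1.30 ± 0.33 for MT-CO1, with a median of 0.98 against 0.01 over all genes. No mitochondrial gene, and none of all genes (0.0%), passed by edgeR, the adjusted p of the 13 mRNAs being 0.939. At an unadjusted p under 0.05 edgeR gave 15 of the 21 mitochondrial genes, all positive, against 2.53% of all genes positive, and DESeq2 called none. The tRNA gene at 5212 to 5279 had 1.70 ± 0.70 and that at 5107 to 5178 had 1.36 ± 0.61, while that at 15392 to 15457 had 0.41 ± 0.45.

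The 3 counted tRNAs followed no single pattern. The gene at 5107 to 5178 had 44.0, 21.8 and 34.5 CPM in KO compressed, 13.3 and 20.8 CPM in KO control, 14.3, 15.2 and 21.99 CPM in WT compressed and 40.4, 12.7 and 14.4 CPM in WT control cells. KO compressed libraries lay above both KO controls, and in WT cells the groups overlapped, with WT control 1 again highest. The gene at 5212 to 5279 had 13.6, 7.28 and 14.5 CPM in KO compressed, 4.79 and 10.7 CPM in KO control, 5.00, 4.91 and 6.46 CPM in WT compressed and 21.7, 5.97 and 7.20 CPM in WT control cells. The gene at 15392 to 15457, at the far end of the map, overlapped between compressed and control cells in both genotypes.

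Nuclear genes that serve mitochondrial RNA were examined beside the mitochondrial genes. Of a list of 72, 66 were tested. After compression of WT cells 6 were called higher by edgeR and none lower, against 3.85% of all genes called higher, with a list median of 0.24 against -0.02. Of the 66, 40 had a positive and 26 a negative value. At an unadjusted p under 0.05 edgeR gave 22 as higher and 11 as lower. Of all 13560 genes it gave 2087 as higher and 2220 (16.4%) as lower. MTERF1, which binds mitochondrial DNA and can end transcription, had 29.9, 23.6 and 33.6 CPM in WT compressed cells, against 11.8, 11.9 and 10.9 CPM in WT control cells, with 1.33 ± 0.29 and an edgeR adjusted p of 0.041. TFAM, which packs mitochondrial DNA and is needed to start its transcription, had 39.4, 35.2 and 37.3 CPM in WT compressed cells, against 22.6, 22.3 and 16.7 CPM in WT control cells, with 0.86 ± 0.19 and an edgeR adjusted p of 0.041. No compressed library overlapped a control for either.

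The other 4 were MTIF2, a translation initiation factor (1.00 ± 0.22), TFB2M, a transcription initiation factor (0.53 ± 0.13), PNPT1, a ribonuclease of RNA decay (0.64 ± 0.17), and GABPA, a nuclear transcription factor subunit (0.74 ± 0.20). Each of the 6 calls was kept only without WT control 1 among the 6 fits that left out 1 library of the groups compared. That fit called 1379 genes of the whole table and each of the others 0 or 1, so the loss is not particular to these 6 genes. In KO cells none of the 66 was called after compression by edgeR, 1 was higher (3.41% of all genes) and 2 lower (2.7%) at an unadjusted p under 0.05, and 33 had a positive and 33 a negative value. Between KO compressed and WT compressed cells 56 of 66 had a negative value, with a median of -0.19, none called and 8 lower at an unadjusted p under 0.05 against 4.49% of all genes.

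Of 76 nuclear-encoded subunits of complexes I to V, 68 were tested, and 3 were called higher in WT compressed than in WT control cells, a share near the 3.85% of all genes called higher there. These were NDUFS1 of complex I (0.52 ± 0.13), COX6C of complex IV (1.77 ± 0.43), named from a protein match of a gene the authors assembled, and ATP5ME of complex V (1.03 ± 0.26), with edgeR adjusted p-values of 0.0448, 0.0428 and 0.0433. Each was kept in 1 of 6 fits that left out 1 library of the groups compared. For NDUFS1 and ATP5ME this was the fit without WT control 1. COX6C was lost in that fit, with an edgeR adjusted p of 0.0549, and was kept in another, at 0.0455. COX6C had 79.2, 88.2 and 144.8 CPM in WT compressed cells, against 21.6, 12.5 and 57.4 CPM in WT control cells. All of the 6 fits but that without WT control 1 called 0 or 1 genes of the whole table. The 68 had medians of 0.14 in KO cells and 0.17 in WT cells after compression, and 0.03 between KO compressed and WT compressed cells, beside 0.56, -0.32 and 0.72 for the 13 mitochondrial mRNAs.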

How the data were processed

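Polyadenylated RNA was captured with oligo(dT), per the labels' protocols. Tools named in the submitters' processing notes are CASAVA, FastQC and HISAT2 2.0.5, with genome build CanFam3.1. The gene counter, annotation release and strand setting are not stated there. The authors' deposited count table holds raw whole-number gene counts. The authors also deposited FPKM values, which are these counts per kilobase and per 1e6 of an effective library size of 0.964 to 1.049 times the total, and which were used for ranks and alternatives. Gene coordinates, strand and class were read from the deposited table.

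The main test was edgeR 4.0.16 under R 4.3.3, with filterByExpr over the 4 groups, TMM scaling and 1 quasi-likelihood fit over 11 libraries with 7 residual degrees of freedom, Benjamini-Hochberg adjustment over 13560 genes, threshold 0.05. SE is the log2 fold change divided by the root of the F statistic. DESeq2 1.42.0 and limma 3.58.1 were alternatives. The other alternatives were RLE scaling, library size alone, mitochondrial genes left out of scaling, other filters, the compared groups alone, the replicate number as a block, and 1 library left out at a time. Tests were checked on simulated counts with the same dispersion for every gene and no outlying library. That check does not cover libraries that lie apart from their group, such as WT control 1. No replicates held identical values or agreed within sampling noise, with a lowest chi-square per gene of 6.09. Named genes are all 13 mRNAs, both rRNAs, tRNAs with a mean of at least 1 CPM, LMNA, up to 6 called members per direction of the RNA list and up to 2 called subunits per complex. The members and lists were chosen with earlier results of these data known.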

Additional observations from a re-analysis of the deposited data

Results flagged for a closer look

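The summed share of library counts held by the 13 mitochondrial mRNAs moved in opposite directions on compression in the 2 genotypes, which is why it is given again here. In KO cells it differed by 0.999 percentage points between compressed and control cells, with all 3 compressed libraries above both controls, and by 0.455 points without KO compressed 3. In WT cells it differed by -0.916 percentage points, with all 3 compressed libraries below all 3 controls, and by -0.539 points without WT control 1. The difference between these changes was not tested for the sum. For single genes it was tested as an interaction by edgeR, in which no mitochondrial gene passed an adjusted p of 0.05. KO compressed 3 (4.68%) and WT control 1 (3.76%) are the libraries farthest from the rest of their groups. Without either, all compressed libraries still lay on the same side of their controls, with the smaller differences given above.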

How the results depend on the processing

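The comparisons were fitted again under 22 alternatives (21 for the interaction). The count of mitochondrial genes called kept at 0 in every alternative for KO compressed against KO control cells, KO control against WT control cells and the interaction. In what follows, the count of all genes called in the same fit is in parentheses. For WT compressed against WT control cells the mitochondrial count was 0 in the reported fit (848), 5 by DESeq2 (2386) and 4 with no filter (1754). It was 3 with the groups of the comparison alone (2069). On leaving out 1 library it was 0 to 5, the highest without KO compressed 2 (3067). For KO compressed against WT compressed cells it was 1 in the reported fit (107), 8 by DESeq2 (353) and 8 with no filter (201). On leaving out 1 library it was 0 to 9, the highest without KO compressed 2 (349). It was 0 with limma on log2(FPKM + 1) (59), on log2(FPKM + 0.1) (50) and with no filter (57). It was also 0 with the groups alone (64) and 0 with the replicate block (53). The cause was not tested. Same-numbered libraries did not deviate together (correlations of -0.40 to 0.25), so the numbers were not taken to pair samples; with the replicate block the fit called 53 genes of all in that comparison, 15 in KO control against WT control cells and 0 in WT compressed against WT control cells.

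The median log2 fold change of the 13 mRNAs kept its sign in every alternative. The count of all genes called in WT compressed against WT control cells was 848 in the reported fit, 2386 by DESeq2, 1754 with no filter, 2069 with the groups alone, 0, 1 and 0 by limma, and 0 to 3067 on leaving out 1 library, the highest without KO compressed 2. For KO compressed against WT compressed cells it was 107, against 353 by DESeq2, 201 with no filter, 64 with the groups alone, 59, 50 and 57 by limma and 39 to 349 on leaving out 1 library. For KO control against WT control cells it was 46, against 123, 90, 33, then 16, 8 and 21 by limma, and 6 to 106. As a share of the FPKM sum, the 13 mRNAs took 6.35% in KO compressed, 4.78% in KO control, 3.88% in WT compressed and 5.43% in WT control cells. With TMM-scaled library sizes the share in KO control cells was 2.52%.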
